A study of Mus musculus with 30 samples.

Results

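The Zfp genes of the mouse are the zinc finger genes that are named by Zfp and a number. They were taken from the probe annotation of the arrays by symbol, with Zfp42 left out, and only probe sets that name a single gene were used. This gave 253 genes with 426 probe sets, out of 15964 genes that were named alone by a probe set. Expression was measured in a 129-derived mouse embryonic stem (ES) cell line that carries green fluorescent protein at Sox1, a neuroectodermal gene. The cells were differentiated as floating serum-free aggregates (SFEB culture) and sorted by flow cytometry for Sox1 or for E-cadherin, a marker of undifferentiated cells. All 10 samples come from this line. There were 3 ES samples, which the labels give as E-cadherin-positive, and 1 sample of each other group. These were aggregates of day 1, for which the labels name no sort, E-cadherin-positive and E-cadherin-negative cells of day 2, Sox1-negative cells of day 3, and Sox1-positive cells of day 3, day 4 and day 5. The Sox1-positive samples were compared as 3 samples of different days. The labels do not say whether the ES samples were separate cultures, so p-values measure only the spread between these samples, which may be technical.

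Most Zfp genes encode proteins with tandem C2H2 zinc fingers, each of which contacts a few bases of DNA. Many also carry a KRAB domain, which binds the co-repressor Trim28. Trim28 brings the histone methyltransferase Setdb1 and silences retroelements and imprinted loci in ES cells. Others have no KRAB domain and act as ordinary transcription factors, as co-repressors, or on RNA and protein turnover. The shared name says nothing of a shared function.

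Each sample was read on the 3 Affymetrix chips U74Av2, U74Bv2 and U74Cv2, and the values are linear intensities, 1 per probe set. The number of arrays limits the precision. Median intensity per array was between 176.9 and 278. Of 10 neural progenitor markers 10 rose in Sox1-positive cells, and of 10 pluripotency markers 9 fell, while none of 9 tested mesoderm and endoderm markers and none of 5 tested fibroblast markers passed the test. Of 8 neuronal markers 3 rose (Elavl4, Map2 and Nefm). The summed neuronal markers were 7633 to 16556 in Sox1-positive cells, against 7481 to 7976.5 in ES cells. Sox1 itself (92342_at) was higher in Sox1-positive than in ES cells by 0.83 on the log2 scale (SE 0.18, limma adjusted p = 0.0229). Against day 1, day 2 E-cadherin-positive and day 3 Sox1-negative cells together it did not pass the test (0.43, SE 0.23, limma adjusted p = 0.305). Sox1 intensities were 308, 310 and 252 in Sox1-positive cells of days 3, 4 and 5. Day 2 E-cadherin-positive cells had 253 and day 3 Sox1-negative cells 241, so the groups overlap. Cdh1, the E-cadherin gene, changed by -0.40 (SE 0.21, adjusted p = 0.282). Its intensity was 565 in the day 2 E-cadherin-negative sample and 572 in the E-cadherin-positive one, so the transcript did not follow the sort label there. The ratio of the 3' to the 5' actin probe sets on U74Av2 was 1.70 in ES 3, 1.34 in the day 5 sample and 1.33 in day 2 E-cadherin-negative cells, and 0.939 to 1.15 in the others.

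Of the 253 Zfp genes 222 passed the filter on low intensity and were tested. The 31 others had mean intensities of 12.9 to 115 on their brightest probe set. Between Sox1-positive and ES cells 27 of the 222 changed at an adjusted p under 0.05 (12.2%, against 12.6% of all 12941 genes tested; limma with Benjamini-Hochberg adjustment). Of these 12 rose, where 6.4% of all genes did, and 15 fell, where 6.17% of all genes did. As shares of the tested Zfp genes these counts are 5.41% and 6.76%. The Zfp genes as a whole were therefore called about as often as other genes. Their median change was 0.12 on the log2 scale, against -0.01 over all genes, and 131 of the 222 (59%) lay above 0, against 49% of all genes. Arrays of both groups did not overlap for 44 genes in the higher direction (19.8%, against 16.9% of all genes) and for 31 in the lower direction (14%, against 18.2%). The spread among ES samples was 0.284 (median SD on the log2 scale), and 0.252 over all genes. The counts depend on single libraries: without ES 2 there were 7 called higher and 7 lower, and without day 4 there were 7 called higher. Without both ES 3 and day 5, the samples with the highest actin ratios, 6 were called higher and 7 lower. Fewer samples weaken the test for every gene, and the shares of all genes in these runs are not given here. The drops can therefore not be read as particular to Zfp genes.

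**Figure D1:**
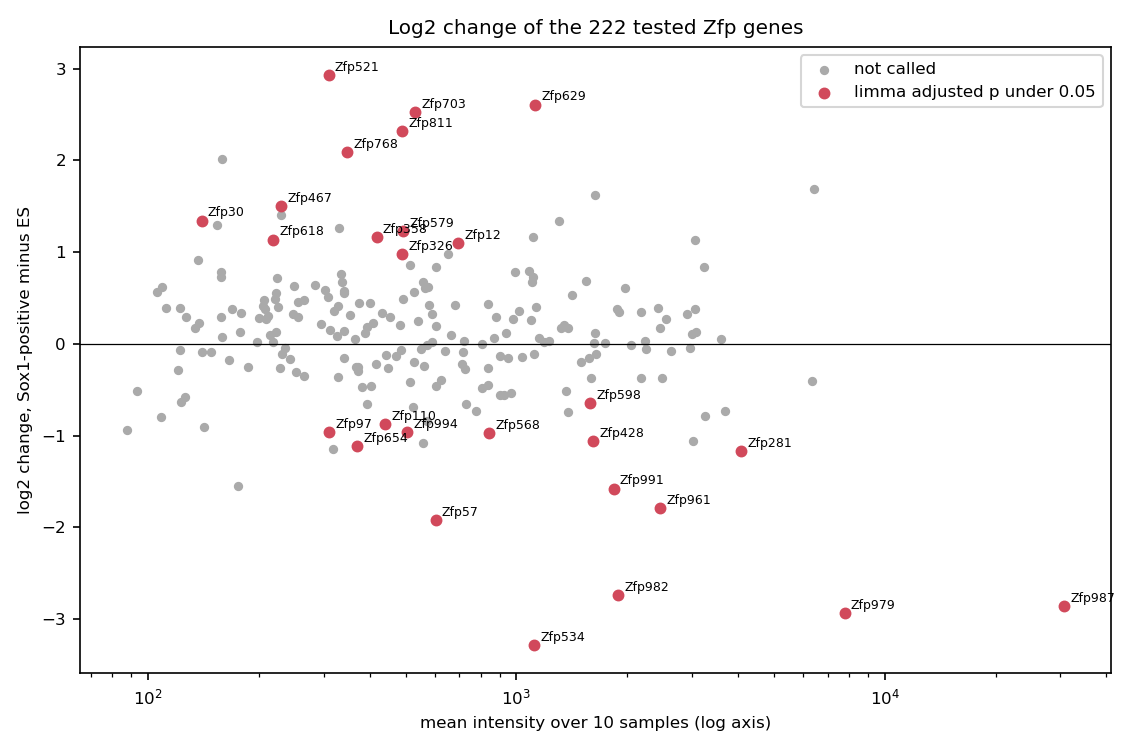
Log2 change of each of the 222 tested Zfp genes between Sox1-positive and ES cells (vertical axis) against its mean intensity over the 10 samples (horizontal log axis). Red points with names are the 27 genes called by limma, from Zfp534 at -3.28 to Zfp521 at 2.93, and grey points are the others.

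The 4 largest falls belonged to neighbouring genes on chromosome 4, in a region known for KRAB zinc finger genes that repress retrotransposons. These are Zfp534, Zfp979, Zfp987 and Zfp982, and a 5th neighbour, Zfp991, fell as well. Zfp979 is also known as Ssm1b, a strain-specific modifier of DNA methylation. The stretches upstream of their annotated starts are close copies of each other, which is why they are shown here together with that of Zfp984, a neighbour that was not called. They are RefSeq sequence of build GRCm38.p6, each 95 bases, on the strand of the gene, from chr4:147702635-147702729 (minus strand) for Zfp534, chr4:147642547-147642641 (minus) for Zfp979, chr4:146097169-146097263 (plus) for Zfp987, chr4:147492274-147492368 (plus) for Zfp982 and chr4:147809840-147809934 (minus) for Zfp984. Capitals mark ATTGG, the CCAAT box read on the opposite strand.
Zfp534: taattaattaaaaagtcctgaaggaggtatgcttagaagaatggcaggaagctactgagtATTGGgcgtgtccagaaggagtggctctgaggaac
Zfp987: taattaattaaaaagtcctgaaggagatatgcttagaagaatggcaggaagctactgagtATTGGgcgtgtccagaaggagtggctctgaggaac
Zfp982: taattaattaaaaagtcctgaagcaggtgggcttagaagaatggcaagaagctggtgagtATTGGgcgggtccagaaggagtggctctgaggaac
Zfp979: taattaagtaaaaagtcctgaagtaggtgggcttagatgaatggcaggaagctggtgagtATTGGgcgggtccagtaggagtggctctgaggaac
Zfp984: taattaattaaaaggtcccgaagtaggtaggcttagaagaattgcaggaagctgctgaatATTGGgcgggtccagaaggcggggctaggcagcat
The Zfp534 and Zfp987 stretches differed at 1 of the 95 bases, those of Zfp979 and Zfp982 at 5, and the other pairs among these 4 at 7 to 10. The Zfp984 stretch differed from the other 4 at 16 or 17 bases. Zfp982 has 3 annotated starts, of which the window most like that of Zfp534 is shown, and Zfp991 had no entry in the promoter table.

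Zfp534 (135614_at) had intensities of 1567.5, 1291 and 1621 in the ES samples and of 86.3, 236 and 127 in Sox1-positive cells of days 3, 4 and 5. The log2 change was -3.28 (SE 0.37, limma adjusted p = 0.00309). Its other samples kept the ES level, with 2419.5 at day 1, 1808 in day 2 E-cadherin-positive and 1369 in day 3 Sox1-negative cells, except the day 2 E-cadherin-negative sample at 645. Zfp979 (165755_r_at) was measured at 11943, 12732 and 12388 in ES cells and at 2591, 1832 and 860.4 in Sox1-positive cells, a log2 change of -2.94 (SE 0.41, adjusted p = 0.00674). Day 1, day 2 E-cadherin-positive and day 3 Sox1-negative cells had 11681, 9209 and 9365, and day 2 E-cadherin-negative cells 5193. Both genes thus had day 2 E-cadherin-negative cells between the other groups, and the Sox1-positive samples lay below all others.

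Zfp982 (97154_f_at) had 2513, 2701 and 2959 in ES cells, 2922, 2814.5 and 2580 in day 1, day 2 E-cadherin-positive and day 3 Sox1-negative cells, 1046.5 in day 2 E-cadherin-negative cells and 610.0, 590.5 and 164 in Sox1-positive cells. Its log2 change was -2.74 (SE 0.44, adjusted p = 0.00802), and its other tested probe set (115465_f_at) fell as well (-1.77, adjusted p = 0.00995). Zfp987 (166882_f_at) had 33309, 39861 and 59529 in ES cells against 8148, 11142 and 2272 in Sox1-positive cells (log2 change -2.86, SE 0.60, adjusted p = 0.0272). Its call was lost without ES 1, ES 2, ES 3 or day 3 and when p-values were adjusted within each chip, with adjusted p up to 0.083 over its alternatives. Zfp991 (110785_f_at) went from 2411, 3086 and 2537 to 915, 988 and 757 (log2 change -1.58, SE 0.20, adjusted p = 0.00344), while its other probe set (170148_at) had a log2 change of -0.44 (adjusted p = 0.375). Zfp984 (105191_at) had 567, 823 and 819 in ES cells and 455, 594 and 529 in Sox1-positive cells, which overlap (log2 change -0.46, SE 0.22, adjusted p = 0.25).

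The probe sets of Zfp982, Zfp987 and Zfp991 end in _f, the maker's mark for probes shared by a gene family, and that of Zfp979 ends in _r, a reduced set. Only stretches upstream were compared here, and the transcripts and probe sequences were not. Genes of a family can hybridise to each other's probes, so the values of these 4 are uncertain as to which copy they report. Zfp534 is read by a plain probe set, which does not show that it reports Zfp534 alone. The summed intensity of the pluripotency markers moved with these genes, from 43637 to 50659 in ES cells, through 35520 to 41876 in the other aggregate cells and 15083 in day 2 E-cadherin-negative cells, to 1917 to 8880.1 in Sox1-positive cells. Its part in the falls was not tested. In bulk RNA of a sorted population, fewer cells that hold a transcript and less of it per cell cannot be told apart.

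**Figure D2:**
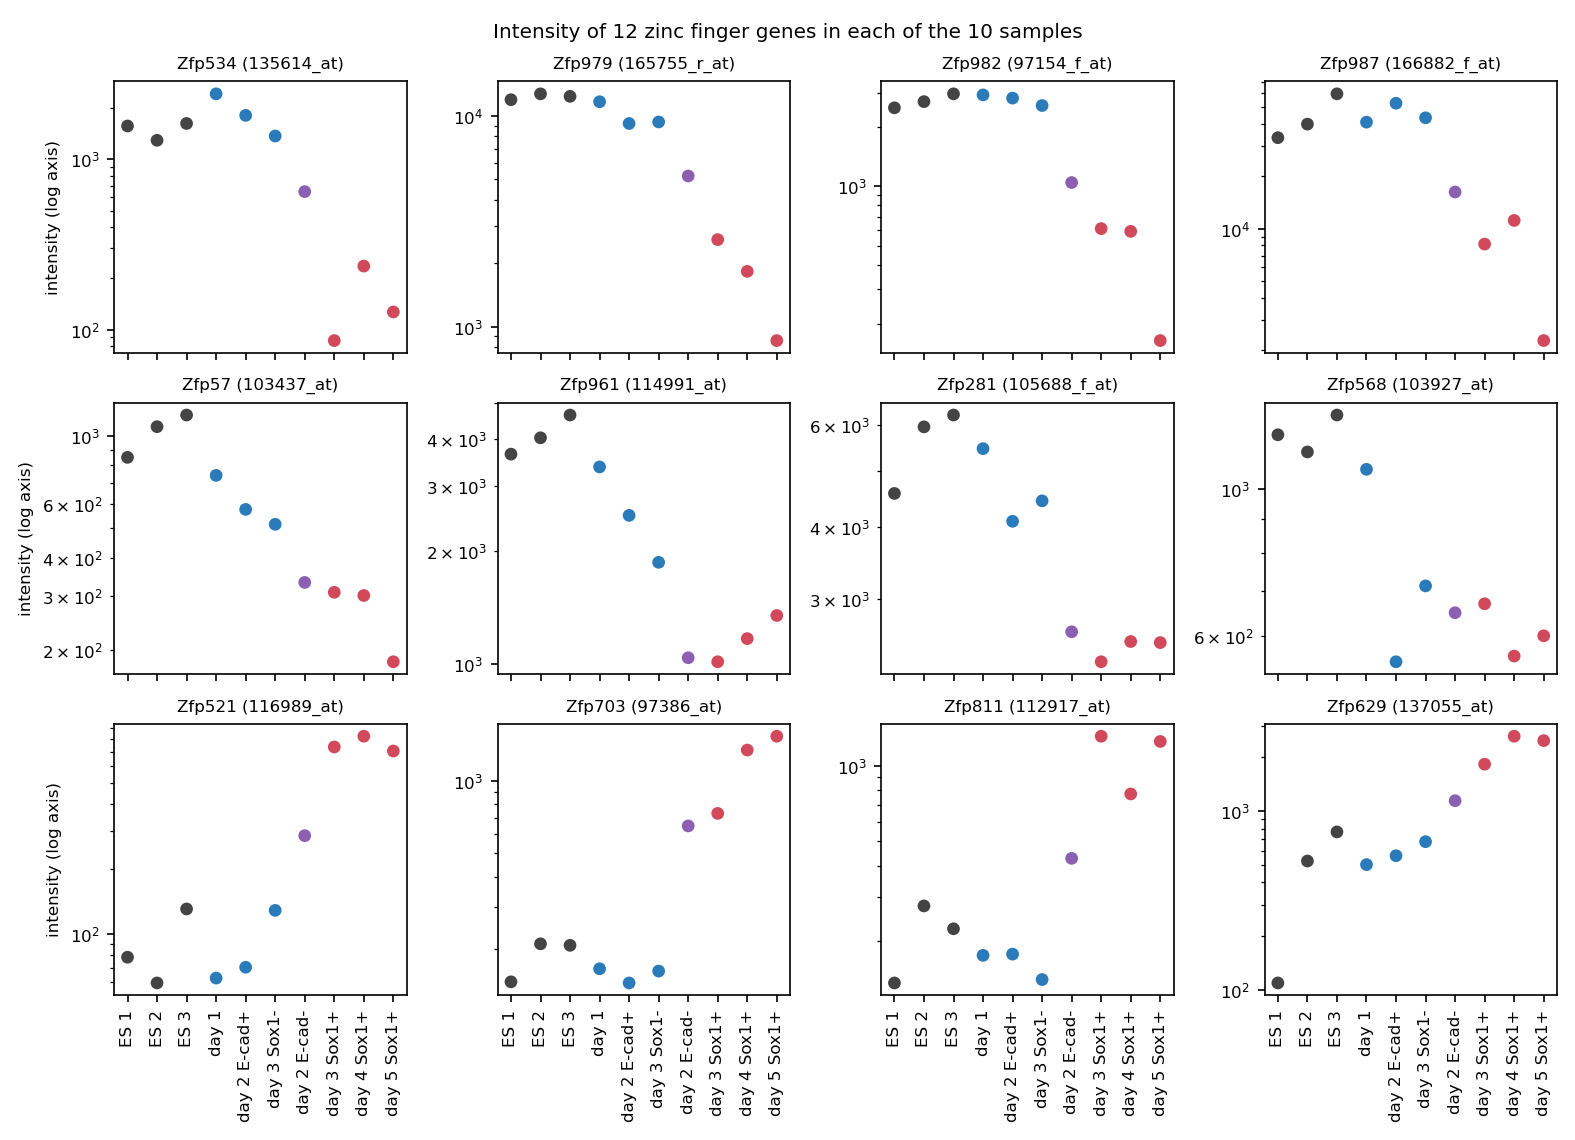
Intensity (log axis, 1 point per sample) of 12 Zfp genes in ES cells (black), day 1, day 2 E-cadherin-positive and day 3 Sox1-negative cells (blue), day 2 E-cadherin-negative cells (purple) and Sox1-positive cells (red). In the upper 2 rows Sox1-positive samples lie below all ES samples, as for Zfp57 (183 to 308 against 849 to 1166), and in the bottom row above them, as for Zfp521 (707 to 827 against 59.5 to 131).

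Among 8 Zfp genes listed for imprint and retroelement silencing, 3 fell (Zfp57, Zfp568 and Zfp110; 37.5%, against 6.17% of all genes), none rose and 5 did not pass the test, with a median change of -0.67. This list and those below were chosen with earlier results of these data known, so their shares are not a test. Zfp57 binds methylated imprinting control regions and keeps their methylation through early development. Its intensity (103437_at) was 849, 1069 and 1166 in ES cells, 741 at day 1, 574 in day 2 E-cadherin-positive cells and 513 in day 3 Sox1-negative cells. It was 332 in day 2 E-cadherin-negative cells and 308, 301 and 183 in Sox1-positive cells. Every aggregate sample lay below every ES sample, and the Sox1-positive samples lay below all others. The log2 change against ES cells was -1.92 (SE 0.24, limma adjusted p = 0.00307), and the call held in all 18 alternatives.

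Zfp568, a KRAB protein that represses a placental promoter of Igf2, had another course over the samples. Its intensities (103927_at) were 1205, 1135 and 1291 in ES cells and 1069 at day 1, and then 548 in day 2 E-cadherin-positive, 650.0 in day 2 E-cadherin-negative and 713 in day 3 Sox1-negative cells. Sox1-positive cells had 671, 559 and 600.0, so that from day 2 on the samples overlapped whatever their sort. Against ES cells it fell by 0.97 (log2 change -0.97, SE 0.17, adjusted p = 0.0105), and against the other aggregate cells the log2 change was -0.29 (SE 0.25, adjusted p = 0.55). The call against ES cells was lost without day 4 (highest adjusted p over the alternatives 0.0873). Zfp110, which encodes an interactor of the p75 neurotrophin receptor, fell from 510 to 625 in ES cells to 223 to 362 in Sox1-positive cells (log2 change -0.87, SE 0.22, adjusted p = 0.0395). Its call was lost when any of the 6 samples was left out.

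Zfp809 silences proviruses of murine leukaemia viruses in ES cells, and its probe sets differed. The brightest (131000_f_at) had a log2 change of -0.79 (SE 0.24, adjusted p = 0.0927), with 3898 to 4394 in ES cells and 1992 to 2576 in Sox1-positive cells. A plain probe set (112443_at) went from 502, 694 and 639 to 218, 214 and 148 (log2 change -1.59, adjusted p = 0.00541). Zfp445, another keeper of imprints, had 827, 1671 and 1565 in ES cells and 1026, 1138 and 1475 in Sox1-positive cells (log2 change -0.11, SE 0.30, adjusted p = 0.877). The values overlap, and the ES samples span nearly the whole range.

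The genes through which KRAB proteins act were looked at beside them. Of 20 tested partners 1 fell (5%, near the 6.17% of all genes) and none rose, and the median change was -0.38. The one that fell was Morc3, which is known to restrict endogenous retroviruses (log2 change -1.73, SE 0.18, limma adjusted p = 0.00156). Trim28 (166206_f_at) had 32190.0, 33199 and 58794 in ES cells and 19346, 20616 and 18839 in Sox1-positive cells, with a log2 change of -1.02 that did not pass the test (SE 0.31, adjusted p = 0.0883). Setdb1 (102771_at) had 1785, 2205 and 2404.5 against 689.7, 1428.5 and 2239, which overlap (log2 change -0.69, SE 0.39, adjusted p = 0.322).

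Of the Zfp genes of the ES cell network 8 were listed, 5 were on the chips and 4 tested. Zfp281 and Zfp57 fell (2 of 4, against 6.17% of all genes), and Zfp296 and Zfp217 did not pass the test on their brightest probe sets. Zfp57 is also counted in the imprint list above, and this list too was chosen with earlier results of these data known. Zfp281 binds G-rich promoter sequences together with core pluripotency factors. Its intensities (105688_f_at) were 4567, 5958 and 6247 in ES cells, 5462 at day 1, 4086 and 4434 in day 2 E-cadherin-positive and day 3 Sox1-negative cells, 2628 in day 2 E-cadherin-negative cells and 2332, 2528 and 2517 in Sox1-positive cells. The fall was even over days 3 to 5, at a log2 change of -1.17 (SE 0.20, adjusted p = 0.0103). All 4 of its tested probe sets were called lower, from -0.83 to -1.17. The call of the brightest was lost without ES 2 (highest adjusted p over the alternatives 0.077).

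Zfp296, an ES-enriched gene, gave different answers on its probe sets. Its brightest (170935_r_at) had 3282, 2957 and 1967 in ES cells and 3718, 2456 and 2619 in Sox1-positive cells, a log2 change of 0.11 (SE 0.31, adjusted p = 0.883). The plain probe set (108790_at) had 516, 513 and 522 in ES cells, 543, 398 and 477 in day 1, day 2 E-cadherin-positive and day 3 Sox1-negative cells, 226 in day 2 E-cadherin-negative cells and 146, 179.6 and 131 in Sox1-positive cells. On it the gene fell by 1.67 (log2 change -1.67, adjusted p = 0.00217). Zfp217 had a log2 change of -0.37 (SE 0.33, adjusted p = 0.565), and Zfp206 and Zfp143 were not analysed here.

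Among the falls outside the chromosome 4 run and these lists, that of Zfp961 (114991_at) was the largest. It had 3646, 4033 and 4642 in ES cells and dropped in steps over the aggregates, with 3368 at day 1, 2498 in day 2 E-cadherin-positive and 1869 in day 3 Sox1-negative cells. Day 2 E-cadherin-negative cells had 1036, already within the range of Sox1-positive cells (1011, 1166.5 and 1346). The log2 change was -1.79 (SE 0.20, adjusted p = 0.00209) and was called in all 18 alternatives, although a second probe set (137585_at) gave -0.51 (adjusted p = 0.424). Zfp654 (log2 change -1.11, adjusted p = 0.011) fell on both of its probe sets. Zfp428 (-1.06, adjusted p = 0.0189) was higher in day 2 E-cadherin-positive and day 3 Sox1-negative cells (2758 and 2435) than in ES cells (1539 to 1929.5), and lowest in Sox1-positive cells (678 to 967). Zfp994 (-0.96, adjusted p = 0.0228) and, chosen after their values were seen, Zfp97 (-0.96, adjusted p = 0.0347) and Zfp598 (-0.65, adjusted p = 0.0469) complete the falls. Zfp598, a ubiquitin ligase that marks collided ribosomes, was one of 12 tested genes listed for RNA, ubiquitin and mitosis, of which 1 rose and 1 fell (8.33% each, near the 6.4% and 6.17% of all genes). Zfp654, Zfp428, Zfp994, Zfp97 and Zfp598 all lost their call without ES 2. Without ES 3 or day 3 the calls of Zfp428, Zfp994, Zfp97 and Zfp598 were lost as well, and so were those of Zfp428 and Zfp598 without day 4, of Zfp994, Zfp97 and Zfp598 without day 5, and of Zfp97 and Zfp598 without ES 1.

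The largest rise was that of Zfp521, a multi-finger transcription factor known to drive ES cells into the neural lineage. Its intensity (116989_at) was 78.3, 59.5 and 131 in ES cells, 62.7 at day 1, 70.4 in day 2 E-cadherin-positive cells and 129 in day 3 Sox1-negative cells. It was 286 in day 2 E-cadherin-negative cells and 738, 827 and 707 in Sox1-positive cells. Sox1-positive samples lay above all others and day 2 E-cadherin-negative cells between the groups. The log2 change was 2.93 against ES cells (SE 0.27, limma adjusted p = 0.00101) and 2.95 against the other aggregate cells (SE 0.26, adjusted p = 0.00138).

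Zfp703 encodes a co-repressor of the Nlz group, which acts in the developing hindbrain and eye. It had (97386_at) 147, 211 and 208 in ES cells, 166, 145 and 163 in day 1, day 2 E-cadherin-positive and day 3 Sox1-negative cells, 650.3 in day 2 E-cadherin-negative cells and 733, 1342 and 1532 in Sox1-positive cells (log2 change 2.52, SE 0.29, adjusted p = 0.00224). The day 2 E-cadherin-negative value was close to that of day 3 Sox1-positive cells. Zfp811 (112917_at) had 136, 276 and 224 in ES cells and 1315, 774 and 1253 in Sox1-positive cells, with 428 in day 2 E-cadherin-negative cells and 141 to 178 in the 3 other aggregate samples (log2 change 2.32, SE 0.31, adjusted p = 0.00419). On day 3 the Sox1-negative cells had 141 and the Sox1-positive cells the highest value of all samples. Calls of Zfp521, Zfp703 and Zfp811 held in every alternative that could be fitted for them, which for Zfp521 excludes the filter at the 60th percentile.

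Zfp629 (137055_at) had 109.9, 527 and 766 in ES cells and 1829.9, 2621 and 2477 in Sox1-positive cells, with ES 1 far below the other ES samples (log2 change 2.61, SE 0.65, adjusted p = 0.0487). Its call was lost in 10 of 18 alternatives, with ES 2, day 3, day 4 or day 5 left out among them, and without ES 1 the log2 change was 1.82 (adjusted p = 0.0282). Zfp768 (164058_i_at) rose as well (2.09, adjusted p = 0.0203), but its day 1 and day 2 E-cadherin-positive values of 355 and 441 were also above the ES range of 46.1 to 178. Zfp467 (1.503, adjusted p = 0.0107), Zfp30 (1.34, adjusted p = 0.00533) and Zfp579 (1.23, adjusted p = 0.00636) rose as well. For Zfp579 the ES samples had 329, 342 and 312, the 3 other aggregate samples 272 to 381, day 2 E-cadherin-negative cells 641 and Sox1-positive cells 717, 902 and 757. Zfp358 (1.17, adjusted p = 0.0468), Zfp618 (1.14, adjusted p = 0.0165), Zfp12 (1.10, adjusted p = 0.0322) and Zfp326 (0.98, adjusted p = 0.0131), a subunit of a complex that couples splicing to transcript elongation, make up the rest. Zfp358 lost its call in 12 of 18 alternatives, each of the 6 samples left out among them. Zfp12, Zfp618 and Zfp768 lost theirs without ES 2 or day 4, Zfp12 and Zfp768 also without day 5, Zfp12 without ES 1 and Zfp618 without ES 3. The summed neural progenitor markers were 3071 to 3350.4 in ES cells and 3387 to 3849 in the other aggregate cells. They were 17354 in day 2 E-cadherin-negative and 29390 to 30647 in Sox1-positive cells. Not all of these genes had that course. Zfp618 was at 161, 226 and 213 in the other aggregate cells, against 114 to 131 in ES cells. Against the other aggregate cells Zfp618, Zfp326, Zfp467 and Zfp768 were not called (limma adjusted p = 0.247, 0.184, 0.105 and 0.328), while the other rises were. The part of the markers in the rises was not tested.

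Of 9 tested Zfp genes listed for neural roles, 2 rose (Zfp521 and Zfp703; 22.2%, against 6.4% of all genes), none fell and 7 did not pass the test, with a median change of -0.06. The neural list too was chosen with earlier results of these data known, so the share is not a test. Zfp423, the close relative of Zfp521 that partners Ebf factors and is needed in the cerebellum, had (108809_at) 1612, 2255 and 1832 in ES cells and 5986, 4534.5 and 2646 in Sox1-positive cells. The groups do not overlap, but the 3 days differed widely and the change missed the threshold (log2 change 1.14, SE 0.31, adjusted p = 0.0584). It was called in 7 of 18 alternatives, 1 of them without day 5 (adjusted p from 0.017 to 0.192 over all 18). Zfp503, the other Nlz co-repressor, had 154, 105 and 167 in ES cells and 162, 171 and 62.5 in Sox1-positive cells (log2 change -0.18, SE 0.36, adjusted p = 0.823). Zfp536, a repressor of neuronal differentiation, changed by 0.63 (SE 0.43, adjusted p = 0.428), and Zfp462, a chromatin factor of ES cells, by -0.06 (SE 0.23, adjusted p = 0.916). For Zfp36, tristetraprolin, which promotes decay of mRNA with AU-rich elements, the log2 change was -0.66 (SE 0.32, adjusted p = 0.247). Its highest values were the 772 and 779 of day 2 E-cadherin-positive and day 3 Sox1-negative cells, against 238 to 429 in ES cells. Zfp238 was not analysed here.

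**Figure D3:**
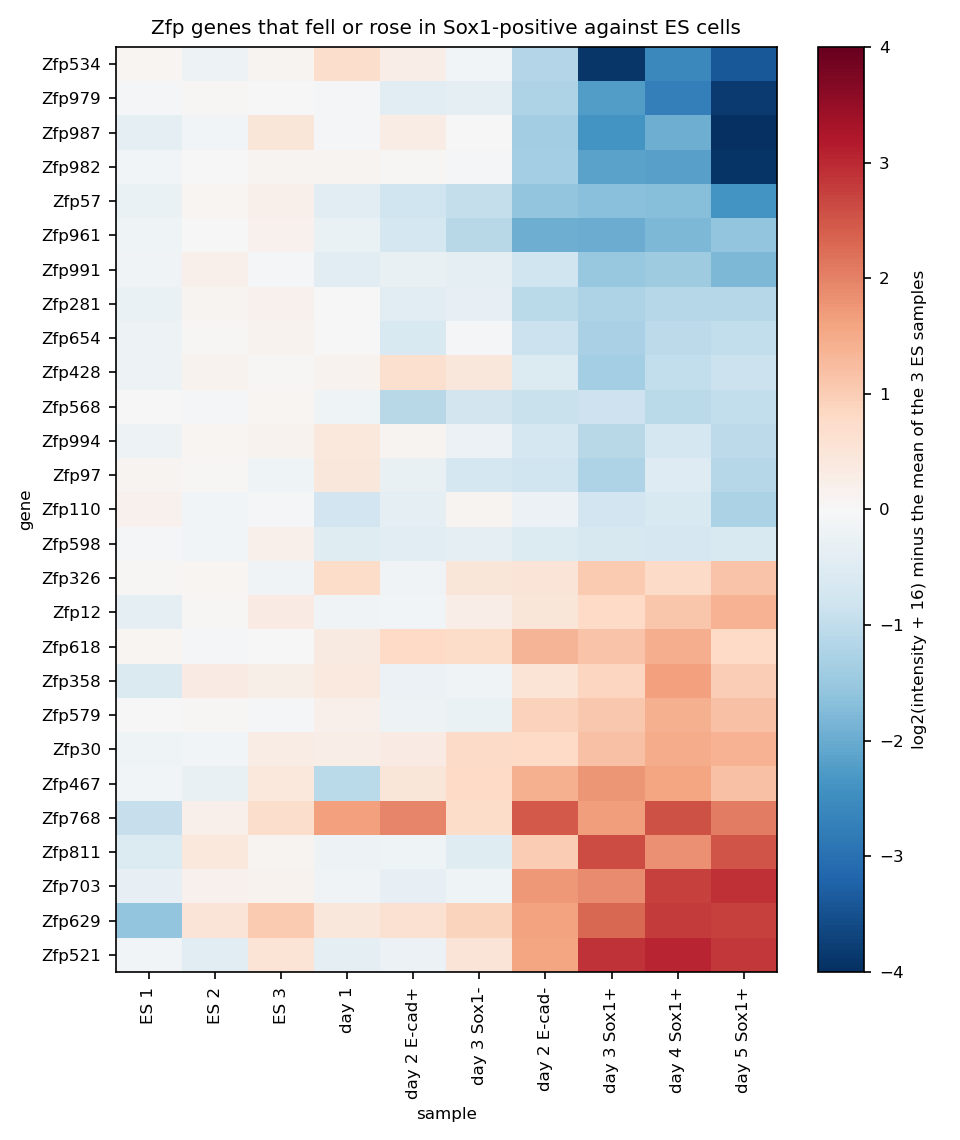
Change of the 27 called Zfp genes (rows, from the largest fall to the largest rise) in each sample (columns), as log2(intensity + 16) minus the mean of the 3 ES samples (blue lower, red higher). Day 2 E-cadherin-negative cells stand between the other aggregate cells and Sox1-positive cells, with median changes of -0.88 over the 15 falls and 1.19 over the 12 rises.

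The day 2 E-cadherin-negative sample, which entered neither side of the main comparison, moved with the Sox1-positive cells. All 15 genes that fell were below every ES sample in it, and all 12 that rose were above every ES sample, with median differences from the ES mean of -0.88 and 1.19. In the other aggregate samples the median over the falls was -0.07 (day 1), -0.38 (day 2 E-cadherin-positive) and -0.32 (day 3 Sox1-negative), and over the rises 0.24, -0.13 and 0.50. These counts and medians share the ES samples with the comparison that chose the genes, so they are partly set by that choice. The same counts over all called genes are not given here. Between the day 2 sorts, which share no sample with it, 13 of the 15 falls were lower in E-cadherin-negative cells (86.7%, the same share as for all 798 genes that fell), all but Zfp110 and Zfp568. The 12 rises were all higher there (91.9% of the 828 genes that rose were).

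Single samples were also compared with the ES cells in a fit of 8 groups, in which a lone sample is assumed to vary like the ES samples. By limma no Zfp gene was called at day 1, in either sort of day 2 or in day 3 Sox1-negative cells. Over all genes 0.0232% were called in day 2 E-cadherin-negative cells and 0% in the other 3 samples. At an unadjusted p under 0.05 there were 9 Zfp genes at day 1 (4.05%, against 6.28% of all genes) and 16 in day 2 E-cadherin-positive cells (7.21%, against 7.45%). Day 2 E-cadherin-negative cells had 26 (11.7%, against 14.6%) and day 3 Sox1-negative cells 12 (5.41%, against 6.47%). The smallest p belonged to Zfp961 in day 2 E-cadherin-negative cells (log2 change -1.96, limma adjusted p = 0.0933).

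Sox1-positive cells were then compared with the 3 other aggregate samples (day 1, day 2 E-cadherin-positive and day 3 Sox1-negative), which asks what sets them apart from aggregate cells rather than from ES cells. The Sox1-positive samples are the same as above, and the days differ between the groups. Of the 222 Zfp genes 22 were called (9.91%, against 10.2% of all genes), 10 higher (4.5%, against 5.53%) and 12 lower (5.41%, against 4.68%). Arrays did not overlap for 41 in the higher direction (18.5%, against 17.2%) and for 26 in the lower (11.7%, against 17.1%). The largest rises were Zfp521 (2.95), Zfp703 (2.74, SE 0.28, limma adjusted p = 0.00167), Zfp811 (2.61, SE 0.25, adjusted p = 0.00167), Zfp41 (2.13, SE 0.45, adjusted p = 0.0341), Zfp629 (1.95, SE 0.26, adjusted p = 0.00744) and Zfp579 (1.31, SE 0.21, adjusted p = 0.00966). The error of Zfp629 was smaller here, since its 3 other aggregate samples lay close together (503 to 675.5). Zfp41 (168188_at) had 7302, 15213 and 16297 in Sox1-positive cells, 4637, 2416 and 1902 in the other aggregate cells and 2126, 5483 and 4608 in ES cells (1.69 against these, SE 0.47, adjusted p = 0.0702).

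The largest falls were Zfp534 (-3.57, SE 0.40, limma adjusted p = 0.00411), Zfp987 (-2.94, SE 0.58, adjusted p = 0.0266), Zfp982 (-2.77, SE 0.44, adjusted p = 0.00907), Zfp979 (-2.64, SE 0.42, adjusted p = 0.0131), Zfp428 (-1.48, SE 0.22, adjusted p = 0.00836) and Zfp991 (-1.20, SE 0.19, adjusted p = 0.00915). Thus the same 5 neighbours on chromosome 4 were lower here too. Zfp57 and Zfp961, which were already below the ES level in these aggregate samples, had changes of -1.18 (adjusted p = 0.0253) and -1.09 (adjusted p = 0.0374), against -1.92 and -1.79 relative to ES cells. Leaving out 1 sample gave 5 to 14 called higher and 6 to 8 lower; the 5 came without day 2 E-cadherin-positive, day 4 or day 5, and the 6 without day 1, day 2 E-cadherin-positive or day 5. With day 3 or day 4 Sox1-positive left out 7 were called lower. Without a filter on low intensity 6 were called higher, and with plain probe sets alone 7 were called lower. The shares of all genes in these runs are not given here.

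The sorts of a single day have 1 sample on a side and were not tested. A Zfp gene was counted where the values differed by 1 or more on the log2 scale and the higher one reached the median of its chip. Between day 2 E-cadherin-negative and E-cadherin-positive cells 12 of 178 Zfp genes were higher and 12 lower (6.74% each, against 6.77% and 4.76% of all genes). Zfp27 led the higher ones (2.77), followed by Zfp703 (2.05), Zfp521 (1.81), Zfp383 (1.62) and Zfp626 (1.59). For Zfp27 this came from a low value of 26 in E-cadherin-positive cells, against 157 to 447 in the 9 other samples. Zfp383 had its lowest value of all samples in E-cadherin-positive cells (339). Its value in E-cadherin-negative cells (1073) lay within the ES range of 556 to 1215. A second probe set of Zfp626 (133970_at) had 206 in E-cadherin-negative and 198 in E-cadherin-positive cells. On the lower side were Zfp934 (-2.30), Zfp987 (-1.69), Zfp944 (-1.68), Zfp595 (-1.63) and Zfp534 (-1.46). Zfp934, Zfp944 and Zfp595 had 148, 149.9 and 139 in E-cadherin-negative cells, their lowest values over all samples.

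Between day 3 Sox1-positive and Sox1-negative cells 14 of 181 were higher (7.73%, against 6.9%) and 11 lower (6.08%, against 6.84%). The largest were Zfp811 (3.09), Zfp521 (2.38), Zfp398 (2.15), Zfp449 (2.10) and Zfp703 (2.07) on the higher side and Zfp534 (-3.76), Zfp987 (-2.41), Zfp982 (-2.05), Zfp827 (-1.97) and Zfp979 (-1.85) on the lower side. Zfp827 had 207 in the day 3 Sox1-positive sample and 831 and 1179.5 in those of days 4 and 5, within or near the ES range of 710.0 to 990.4, so its difference was that of the single sample. Zfp398 (135655_at) likewise had 993 in the day 3 Sox1-positive sample. In those of days 4 and 5 it had 369 and 401, within the ES range of 94.3 to 460. Zfp449 varied among ES samples from 363 to 1640. Counted the same way between ES samples, 21 Zfp genes (12%) differed between ES 1 and ES 2 (6.69% of all genes), 24 (13.6%, against 9.74%) between ES 1 and ES 3 and 9 (5.08%, against 4.42%) between ES 2 and ES 3. Either pair with ES 1 thus held about as many Zfp genes past this difference as either sort did in both directions together.

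Zfp genes lie in runs along the chromosomes, and the changes were laid out by run after their values were seen. A run holds Zfp genes with gaps of at most 8 protein-coding genes, and 12 runs had 4 or more tested members. The chromosome 4 run holds 6 Zfp genes among 14 protein-coding genes, in the order Zfp987, Zfp991, Zfp982, Zfp979, Zfp534 and Zfp984. In it 5 of 6 fell, where 6.17% of all genes did, and the median change was -2.80. The calls of Zfp987, Zfp991, Zfp982 and Zfp979 rest on _f or _r probe sets, which may report each other's copies. These are therefore not separate readings for certain, and on plain probe sets only the call of Zfp534 was kept. None of the other 11 runs had more than 2 members called. The largest, 21 Zfp genes on chromosome 17 from Zfp160 to Zfp13 with 17 tested, had 1 fall (Zfp994) and a median of 0.07. A run on chromosome 7 from Zfp771 to Zfp629 had 2 rises among 5 tested (Zfp768 and Zfp629) and a median of 0.76. Another on chromosome 7, from Zfp84 to Zfp566, held a rise (Zfp30) and a fall (Zfp568) among 10 tested, and the run with Zfp811 on chromosome 17 held no other call on the probe sets used. Zfp871 of that run was called higher on probe sets other than the one kept.

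**Figure D4:**
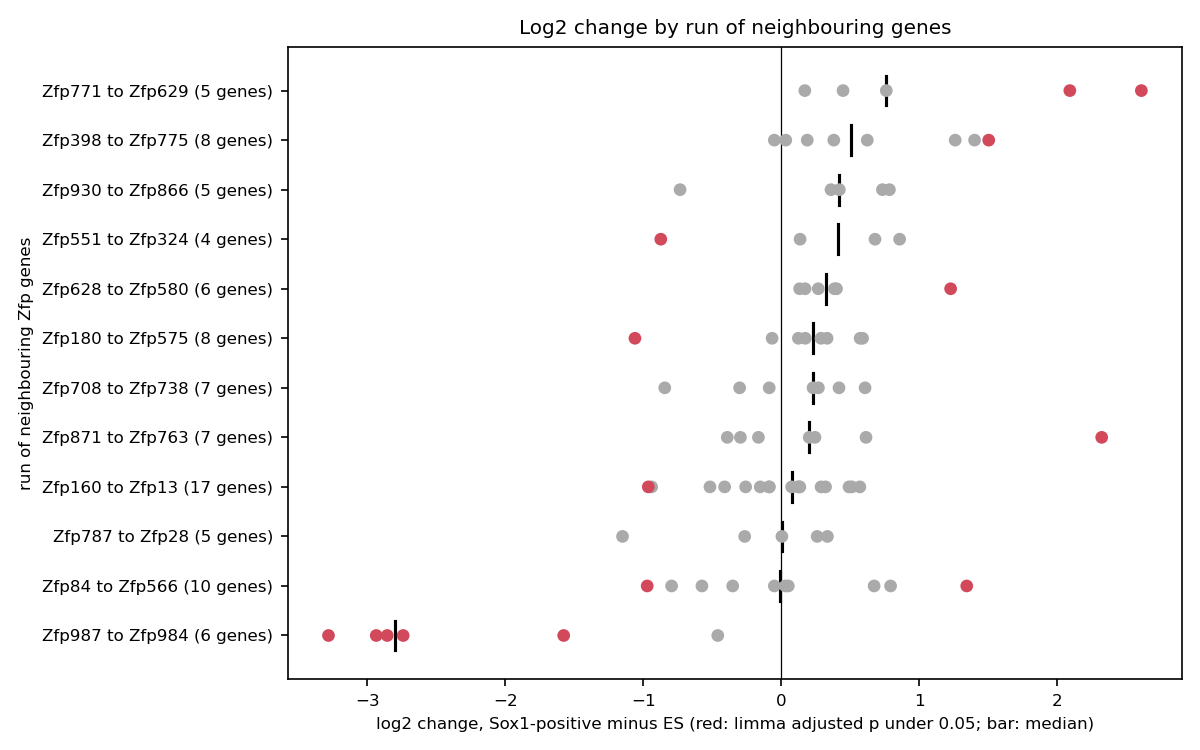
Log2 change between Sox1-positive and ES cells (horizontal axis) of each tested Zfp gene in the 12 runs of neighbouring Zfp genes (rows, named by their first and last tested gene). Red points are genes called by limma and black bars are medians, which run from -2.80 in the Zfp987 to Zfp984 run to 0.76 in the Zfp771 to Zfp629 run.

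The promoter windows of the called genes were searched for short motifs on both strands. A window spans 250 bases before the annotated start and a short stretch after it, and 210 of the 253 Zfp genes had at least 1. Only the 250 bases before the start were searched. The CCAAT box shown above (CCAAT) was in 33.9% of all 32851 windows in the table and in 47.4% of the 369 windows of Zfp genes. These 369 windows, also used for the Zfp shares below, belong to 306 Zfp genes, not only to the 210. The box was in 11 of 16 windows of the 12 genes that fell and had a window (68.8%). It was in 3 of 12 windows of the 10 such genes that rose (25%). Zfp982 alone has 3 windows, and 4 of the genes that fell carry the similar stretches printed above, so the windows are not separate readings. Its first base lay 38 bases before the start in Zfp534 and 73 to 86 bases before it in the other 4. Aligned with gaps left out, the 250 upstream bases of Zfp534 and Zfp987 were identical at 198 of 201 aligned bases (98.5%) and those of Zfp979 and Zfp982 at 221 of 234 (94.4%). The other pairs among these 4 genes were identical at 89.5% to 92.6% of aligned bases. Between Zfp984 and each of the other 4 the identity was 81.1% to 88.4% over 198 to 230 aligned bases. The rest of each window had no counterpart in the alignment and is not in these shares. The TATA box letters TATAAA were in 6.78% of Zfp windows, against 12.4% of all. The octamer ATGCAAAT was in 2.17% against 1.60%, the Zfp57 core TGCCGC in 10.0% against 8.68% and the G-rich GGGGAGGGG in 5.69% against 5.75%. The last was in 3 of 12 windows of genes that rose (25%; Zfp12, Zfp467 and Zfp629) and in 1 of 16 of genes that fell (6.25%; Zfp428). TATAAA and ATGCAAAT were each in 1 of 16 windows of genes that fell (Zfp57 and Zfp428) and in none of genes that rose, and TGCCGC was in none of either. Such matches describe the letters and show no binding.

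How far the probe sets of a gene gave the same answer could be seen for 85 Zfp genes with 2 or more tested. Probe sets of both signs occurred in 32 of these genes, and 22 had at least 1 called. In 3 of the 22 (Zfp281, Zfp654 and Zfp982) every probe set was called the same way, and in none were probe sets called in both directions. Taking any probe set, 19 Zfp genes had one called higher (8.56%, against 8.65% of all genes) and 20 one called lower (9.01%, against 7.61%). Some genes, named after their values were seen, were called only on a probe set other than the one kept for the gene, which is that with the highest mean on the log2 scale. Zfp362 was called on 104366_at, with 211, 297 and 376 in ES cells, 839 in day 2 E-cadherin-negative cells and 1091, 1256 and 1662 in Sox1-positive cells (log2 change 2.13, adjusted p = 0.00247). The one kept (133100_at) also lay higher in every Sox1-positive sample, at 823 to 963 against 436 to 573 in ES cells, but missed the threshold (0.83, adjusted p = 0.0813). Zfp334 (1.78 on 110007_at, and 0.83 with adjusted p = 0.052 on the one kept), Zfp821 (1.60 on 95123_at) and Zfp787 (1.31 on 161019_at) were also called higher on another probe set. Zfp871 was called higher on 104327_at (0.72, limma adjusted p = 0.0496) and 105841_at (1.16, adjusted p = 0.0366). On its other tested probe sets, with the one kept among them (116834_at, 0.61, adjusted p = 0.122), it was not called. All other tested probe sets of Zfp787 had log2 changes from -0.31 to 0.56 and were not called. Zfp704, from the neural list, fell on 1 of 3 probe sets (-1.77 on 167880_at). For Zfp185, which encodes a LIM domain protein despite its name, one probe set fell (-2.27 on 163980_at, adjusted p = 0.0326) and the brighter did not pass the test (0.36, adjusted p = 0.522). Of the 27 genes called, 10 had 2 or more probe sets tested, and 7 of these 10 were called on 1 of them only: Zfp30, Zfp467, Zfp579, Zfp618, Zfp629, Zfp961 and Zfp991. Their other tested probe sets had the same sign, from -0.51 (Zfp961) to 1.24 (Zfp618, 135137_at, adjusted p = 0.288), with that of Zfp30 near 0 (0.01 on 104438_at, adjusted p = 0.985).

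**Figure D5:**
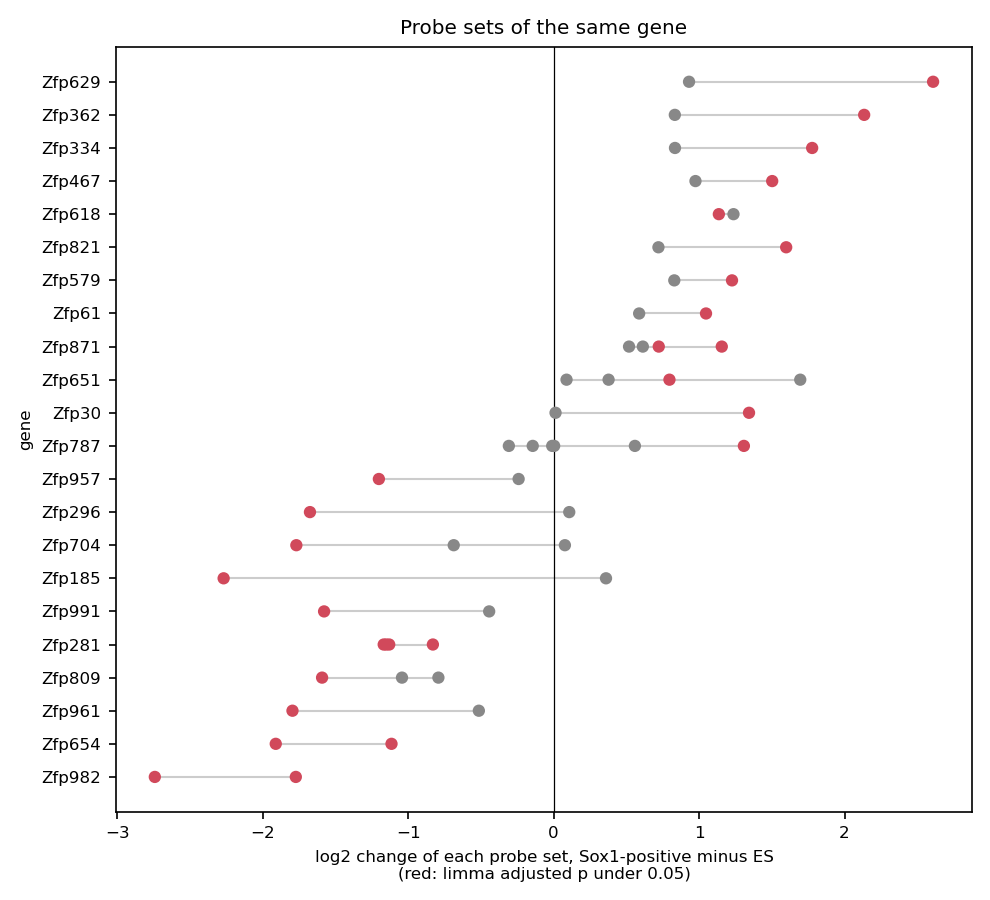
Log2 change between Sox1-positive and ES cells of each tested probe set (points, red where called by limma) of the 22 Zfp genes that have 2 or more tested probe sets and at least 1 called. The points of Zfp281 lie together (-1.17 to -0.83), while those of Zfp296 (-1.67 and 0.11) and Zfp185 (-2.27 and 0.36) lie on both sides of 0.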

How the data were processed

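Biotin-labelled cRNA of 10 samples was hybridised to 3 chips each, per the labels. The authors deposited 1 linear intensity per probe set and array. How they were summarised and background-corrected is not given in the sources used here. All 30 arrays were used as deposited. Values were analysed as log2(intensity + 16), which understates changes of dim genes. Probe sets with a mean intensity at or above the 30th percentile of their chip (78.6, 117.2 and 102) were tested, 25690 of 36701. Per chip, lmFit and eBayes of limma 3.58.1 (R 4.3.3) were run, p-values were Benjamini-Hochberg adjusted over the 3 chips together, and an adjusted p under 0.05 was called. Of several probe sets naming a gene alone, that with the highest mean on this scale was kept, and 18 probe sets naming a Zfp gene with others were not used. The code was tested on simulated data. The Zfp genes and the gene lists were chosen with earlier results of these data known. Named against ES cells were the 12 largest calls each way whose arrays did not overlap, against other aggregate cells the 6 largest each way, between sorts the 5 largest each way, and a list of genes of known roles. Lone samples had a rule for 5 each way, which named none. Alternatives were 2 other normalizations, pseudocounts of 1 and 64, no filter or the 60th percentile, each array left out, ES 3 and day 5 left out, a variance trend, adjustment within chips, the mean over probe sets, plain probe sets, platform against updated symbols (the same Zfp probe sets), a slope on day and a further threshold. Promoter windows are RefSeq's (GRCm38.p6). Python 3.11.15 and matplotlib 3.10.9 made the figures.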

Additional observations from a re-analysis of the deposited data

How the results depend on the processing

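No paired analysis was possible because only the ES samples carry replicate numbers. Against ES cells, leaving out 1 sample gave 7 to 11 Zfp genes called higher and 7 to 13 lower, and without ES 3 and day 5 there were 6 and 7, of which 12 were among the 27. Against other aggregate cells the ranges were 5 to 14 and 6 to 8, with 6 higher without a filter and 7 lower on plain probe sets. For these counts the shares of all genes in the same runs are not given here. For day 2 E-cadherin-negative against ES cells, where none was called, there were 1 higher and 3 lower with the filter at the 60th percentile, 1 lower with a pseudocount of 64 or a variance trend, and 0 to 1 higher and 0 to 3 lower with 1 ES sample left out (the highest without ES 1). The other lone samples stayed at 0 in every alternative run. At a difference of 2 the day 2 sort had 2 higher and 1 lower and the day 3 sort 5 and 3. The shares of all genes are not given here for the counts of the lone samples and sorts either. Zfp296 changed sign, to -1.67 on plain probe sets and -0.78 as a mean over probe sets. On plain probe sets 18 of the 27 calls were kept; Zfp979, Zfp982, Zfp987, Zfp994, Zfp97, Zfp428 and Zfp768 have no such probe set above the filter, and Zfp991 and Zfp467 lost their calls on others. Calls of Zfp521, Zfp534, Zfp57, Zfp703, Zfp811, Zfp961, Zfp979 and Zfp982 held in every alternative that could be fitted for them. The precision is limited by the number of arrays, and 31 Zfp genes were too dim to test.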
